A study of Mus musculus with 168 samples.

Results

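The 40 mitosis genes described here encode the machinery of cell division, from the kinases that start mitosis to the proteins that cut the daughter cells apart. They were taken by gene symbol from the annotation of the array's probe sets (groups of probes summarised to 1 value), using for each gene the probe set with the highest mean log2 value over all arrays. 39 of the 40 had a probe set assigned to 1 gene alone, out of 19752 genes so measured in the series. Ccnb1 had none, so its level is not analysed here. The study gave male C57BL/6 mice of 6 weeks inhibitors of JAK kinases by gavage and profiled sorted immune cells on 168 Affymetrix Mouse Gene 1.0 ST arrays from 80 animals. Macrophages (MF, sorted as F4/80+), dendritic cells (DC, FLT3+), natural killer cells (NK), CD4+ T cells (T4) and granulocytes (GN, Ly6G+) came from spleen on 33, 20, 27, 39 and 16 arrays, and a further 33 arrays held peritoneal MF (F4/80+, in part also ICAM2+). The compounds, known here by code alone, were SB00513404, SB00526221, SB00526222, SB00526226 and SB00526228. No dose is stated in the sources used here.

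Controls received vehicle, labelled 0.5% MC, or the same at pH 3. In spleen the prolonged schedule was 14 or 15 treatments with cells taken 14 to 17 h after the last one (up to 28 treatments and 18 h in T4), and the 4 h schedule was 3 treatments with cells taken 4 h after the last. T4 also had arrays after 1 treatment: SB00513404 at 3 h (1 array) and 18 h (2), SB00526222 at 18 h (1) and vehicle at 3 h (1). They entered the T4 fit and correlations but none of the comparisons given here. The 4 h arrays all come from 1 experiment and have no vehicle of their own schedule, so they were compared with prolonged vehicle. Peritoneal MF were taken 1.5 to 6 h (early) or 18 to 28 h (late) after 1 treatment, or 18 h after 14 treatments. Vehicle peritoneal MF of the late comparison were taken at 18 or 19 h, after 1 treatment on 1 array and after 14 on 2, and the latter also serve the comparison of 14 treatments. An experiment is here the code that opens each array's title (J2, J3, J6 and J8 in spleen MF, J12, J23 and J25 in peritoneal MF). Each fit held group and experiment as added terms, so a fitted difference can differ from the plain difference of group means. Arrays without a reference array in their own experiment were linked to it through groups that experiments share. Values are log2 of RMA intensities, and differences are on that log2 scale. Adjusted p-values are from limma with Benjamini-Hochberg adjustment over all genes tested in that cell type, and a gene was called at an adjusted p under 0.05.

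In a dividing cell, CDK1 with A- and B-type cyclins drives entry into mitosis, PLK1 and the Aurora kinases build the spindle, and the checkpoint kinases hold division until every kinetochore is attached. The anaphase-promoting complex with CDC20 then destroys the cyclins, and motors and scaffolds of the central spindle direct cytokinesis. Transcripts of these genes accumulate late in the cell cycle, so in a sorted population their level tracks how many cells are near division, and resident macrophages can renew themselves by dividing where they live. In bulk sorted samples, fewer dividing cells and less mitotic RNA per cell cannot be told apart.

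Mitosis genes are known to be held down in resting cells through a cell cycle homology region (TTTGAA, or the variant TTCGAA) often placed near a CCAAT box, the site of the factor NF-Y. RefSeq windows on GRCm38.p6 (250 bases before to 50 after the annotated start) were available for 34 of the 40 genes, Ccnb1 included. They were searched on both strands for these motifs, each counted whether or not it overlapped another. TTTGAA or TTCGAA lay in 28 of 34 member windows (82.4%) against 19.4% of the windows of 26991 other genes. CCAAT lay in 24 (70.6%) against 37.9%. A CCAAT together with either of the other motifs lay in 22 (64.7%) against 7.6%. The 6 windows printed here, from 95 bases before the start to 25 after it, belong to the 3 members with the smallest adjusted p under SB00526221 and the 3 with the smallest adjusted p between schedules, both described further on. They are given on the strand of the gene, and capitals mark the searched motifs, ATTGG being CCAAT on the other strand.
Plk1, chr7:122159340-122159459, plus strand: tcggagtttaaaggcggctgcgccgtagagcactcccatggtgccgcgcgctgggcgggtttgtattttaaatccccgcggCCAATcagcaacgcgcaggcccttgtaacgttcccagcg
Knl1, chr2:119047024-119047143, plus strand: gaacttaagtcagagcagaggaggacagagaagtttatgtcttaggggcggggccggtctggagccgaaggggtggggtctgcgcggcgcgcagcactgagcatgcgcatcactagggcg
Cdkn3, chr14:46760446-46760565, plus strand: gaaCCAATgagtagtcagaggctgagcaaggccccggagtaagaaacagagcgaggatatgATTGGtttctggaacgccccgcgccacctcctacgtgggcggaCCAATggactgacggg
Cdc25b, chr2:131186853-131186972, plus strand: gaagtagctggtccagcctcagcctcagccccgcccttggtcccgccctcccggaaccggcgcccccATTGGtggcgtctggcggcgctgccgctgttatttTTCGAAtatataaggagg
Cenpa, chr5:30666791-30666910, plus strand: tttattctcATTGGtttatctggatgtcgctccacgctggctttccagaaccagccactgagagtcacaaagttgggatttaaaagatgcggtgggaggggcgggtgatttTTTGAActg
Prc1, chr7:80294356-80294475, plus strand: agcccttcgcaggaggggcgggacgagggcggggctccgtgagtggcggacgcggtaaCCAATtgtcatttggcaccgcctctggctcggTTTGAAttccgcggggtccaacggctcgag
Plk1, Knl1 and Cdkn3 hold no TTTGAA or TTCGAA in these 120 bases and hold TTTGAA elsewhere in their 300. A match is a string of letters and shows no binding.

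Array medians of the deposited intensities ran from 119.5 to 142.3, and no per-sample column was left unused. By correlation with the other arrays of the same cell type, 16 of the 168 arrays stood apart, 1 of them in spleen MF (SB00526222 prolonged replicate 5), 2 in peritoneal MF and 2 in GN. The arrays labelled spleen MF carried a large peritoneal macrophage list (Adgre1, Gata6, Icam2 and others) at a mean of at least 11.4 on every prolonged inhibitor array and at least 11.6 on every vehicle array, levels that red pulp macrophages of the spleen are not known for, and a red pulp list at 6.83 to 7.25 in the inhibitor arrays of the schedule comparison. The tissue is named as labelled. Separate animals within a group are read from the titles; p-values measure the spread between these arrays.

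In plain vehicle the members' mean level was highest in peritoneal MF and lowest in GN. The mean over 39 members was 8.38 ± 0.33 (SD, n = 9) in peritoneal MF, 7.97 ± 0.22 (n = 6) in DC, 7.76 ± 0.39 (n = 8) in spleen MF, 6.97 ± 0.38 (n = 3) in NK, 6.96 ± 0.52 (n = 7) in T4 and 6.89 ± 0.22 (n = 5) in GN. Peritoneal and spleen MF were profiled in different experiments, so that step was not tested. Within spleen, the DC level differed from MF by 0.13 ± 0.20 (SE), and the means of NK, T4 and GN lay within their spread of each other. Of all 39 members, the number that passed the filter on low values (above the array's median on at least 3 arrays of the cell type) was 38 in peritoneal MF, 36 in DC, 35 in spleen MF, 31 in T4, 27 in GN and 19 in NK. Of all 19752 genes, from 10810 (peritoneal MF) to 11246 (T4) passed, and 11008 did so in NK. The NK count was thus no higher in proportion than that of all genes.

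Bub1, a kinase that marks unattached kinetochores, showed the order most plainly. Its vehicle level was 8.6 ± 0.59 (SD, n = 9) in peritoneal MF, 8.16 ± 0.59 in DC and 7.56 ± 0.56 in spleen MF. It was 5.72 ± 0.71 in NK, 5.73 ± 0.88 in T4 and 5.50 ± 0.39 in GN, below the array's median on every vehicle array of those cells. Against spleen MF in vehicle, 28 of 35 tested members were called lower in GN (42.5% of all genes tested were), 23 of 35 in NK (21.5%) and 18 of 35 in T4 (26%). These tests took every gene that passed the filter in either cell type, and only 27 members passed in GN, 19 in NK and 31 in T4. A member that entered through spleen MF alone, as Bub1 did for GN and NK, was low in the other cell type by that choice. These counts are therefore a description. Anln, an actin-binding scaffold of the cleavage furrow, differed by -2.33 in NK and by -2.08 in T4, and passed the filter in neither. Ccna2, the cyclin of S phase and mitotic entry, differed by -2.12 in GN. In DC, 2 of 36 members were called lower (29% of genes) and 4 higher (18.8%), the latter being Knl1 (0.73), Kif23 (0.68), Kif15 (0.64) and Stmn1 (0.60).

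Some members did not follow that order. Cdc25b, a phosphatase that activates CDK1, stood at 9.46 ± 0.41 in T4 and 9.25 ± 0.08 in NK against 8.04 ± 0.22 in spleen MF, and was called higher in both (1.58 and 1.35; 27.2% and 17.9% of all genes were called higher in T4 and NK). Kif23, a motor of the central spindle, stood at 11.02 ± 0.25 in GN against 8.7 ± 0.51 in spleen MF, a called difference of 2.2 (35.6% of genes were called higher in GN). Cenpa, the histone H3 variant that marks centromeres, was called higher in T4 and GN, by 0.41 in each. After removing experiment means, the correlation of each member with the mean of the others had a median of 0.91 over 33 spleen MF arrays and 0.93 over 33 peritoneal MF arrays, where the lowest was Racgap1 at 0.49 and 0.54. In GN it ranged from -0.40 for Kif23 to 0.96 for Nusap1. Cdc25b had the lowest value in DC, -0.13, and in T4, 0.40. Differences between treatment groups were not removed from these values, so the correlations are a description.

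**Figure D1:**
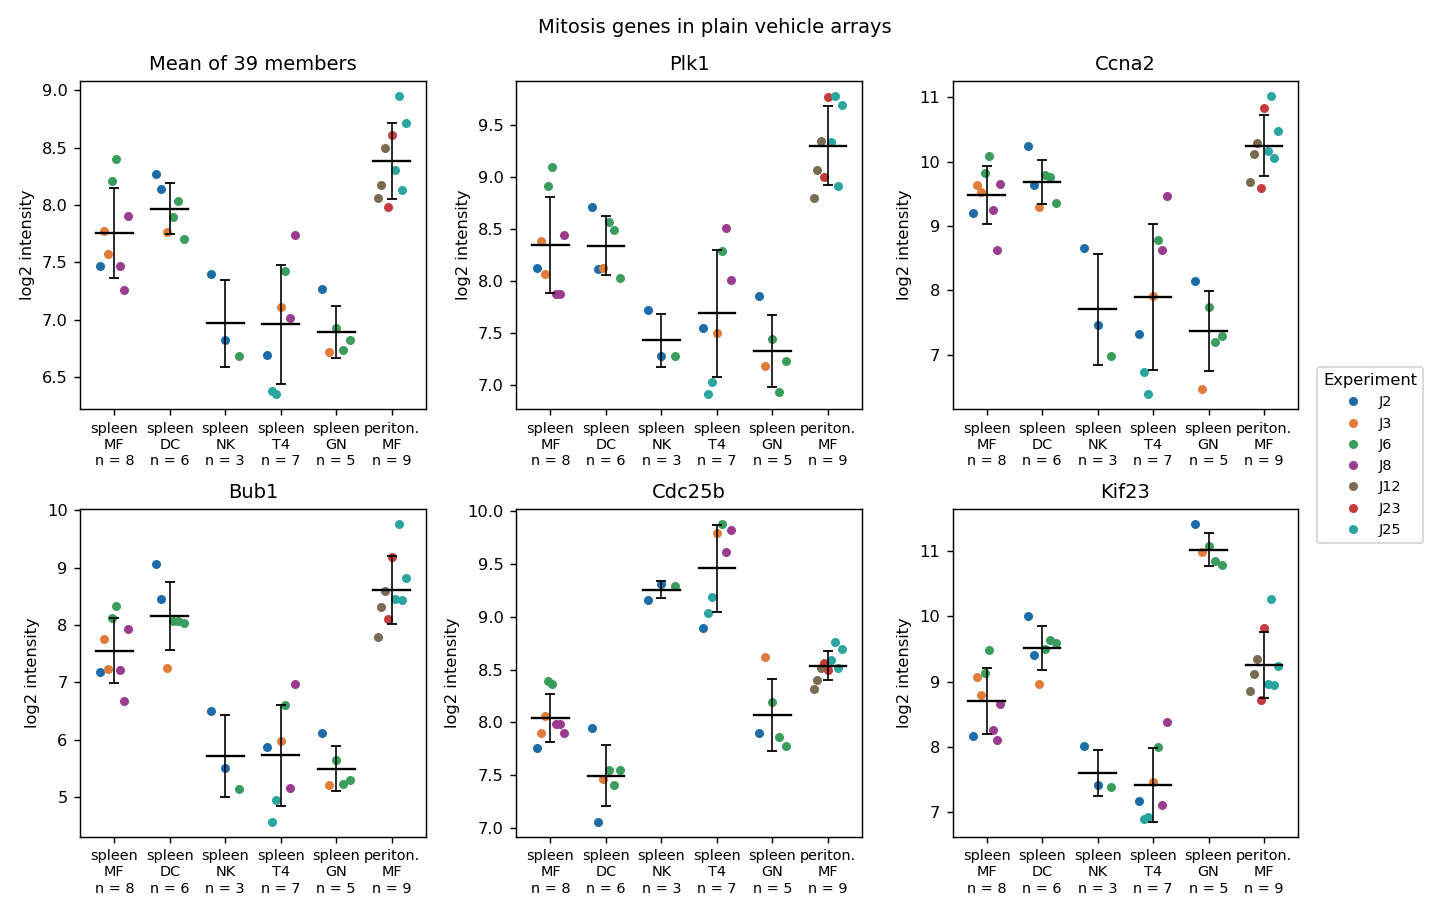
Log2 level of the members' mean and of Plk1, Ccna2, Bub1, Cdc25b and Kif23 in each cell type under plain vehicle; points are arrays coloured by experiment, lines are means and bars are SD (n from 3 in NK to 9 in peritoneal MF). The mean and Bub1 are high in both kinds of MF and in DC, Cdc25b is highest in T4 and NK, and Kif23 stands at 11.02 in GN.

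In spleen MF, mitosis genes stood lower after prolonged inhibitor treatment than in vehicle, all in the same direction and by modest amounts. The members' mean ran from 6.82 to 7.86 with a median of 7.15 over 18 inhibitor arrays of 4 compounds, and from 7.26 to 8.40 with a median of 7.67 over 8 vehicle arrays. The groups overlap, and the lowest vehicle array lies above the inhibitor median. The fitted difference of the mean was -0.45 ± 0.12 (SE). All 35 members tested had a difference below 0, as had 47.2% of all genes, and their median was -0.48 against 0.01 over all genes. No member was called after adjustment (0.00911% of genes were called lower), while 33 of 35 were lower at an unadjusted p under 0.05 (3.01% of genes). The 35 include every member above the array median on enough arrays, so these counts leave out Cenpe, Cdc25c, Ttk and Hmmr.

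The 5 members with the largest moderated statistic were Anln, Plk1, Knl1, Ndc80 and Kif2c. Anln ran from 6.91 to 8.33 (median 7.40) in 18 inhibitor arrays against 8.29 ± 0.51 (SD, n = 8) in vehicle, a difference of -0.68 ± 0.15 (SE) with an adjusted p of 0.164 by limma. 16 of the 18 arrays lay below the vehicle mean of their experiment. Ndc80, which couples kinetochores to microtubules, differed by -0.31 and Kif2c, a kinesin that removes faulty attachments, by -0.35, also at adjusted p 0.164 by limma. By role, the medians were -0.61 for the 4 cyclins and CDK1 regulators, -0.50 for the 6 spindle motors and microtubule proteins, -0.48 for the 7 kinases and checkpoint genes, -0.47 for the 7 central spindle genes, -0.46 for the 4 chromosome genes, -0.36 for the 5 kinetochore genes and -0.35 for Ube2c and Cdc20, partners of the anaphase-promoting complex. The widest single difference was that of Ccna2, -0.70, and the narrowest those of Racgap1, -0.11, and Cenpa, -0.16.

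The size differed between experiments. The mean difference was -0.42 in J2 (5 against 1 array), -0.14 in J3 (3 against 2), -0.88 in J6 (3 against 2) and -0.42 in J8 (7 against 3), and the compounds are spread unequally over these experiments. The count of called members was 1 without vehicle replicate 1 or without SB00526226 replicate 3, 3 without SB00526222 replicate 4 and 8 without vehicle replicate 7. The share of all genes called in these refits is not given here. Beside this, the large peritoneal macrophage list differed by 0.07 ± 0.08 (0 of 6 genes called), the monocyte list by -0.14 ± 0.13 (0 of 2) and the B cell list by 0.05 ± 0.13 (0 of 3 tested). No gene of the NK cell, T cell or mature granulocyte lists passed the filter.

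**Figure D2:**
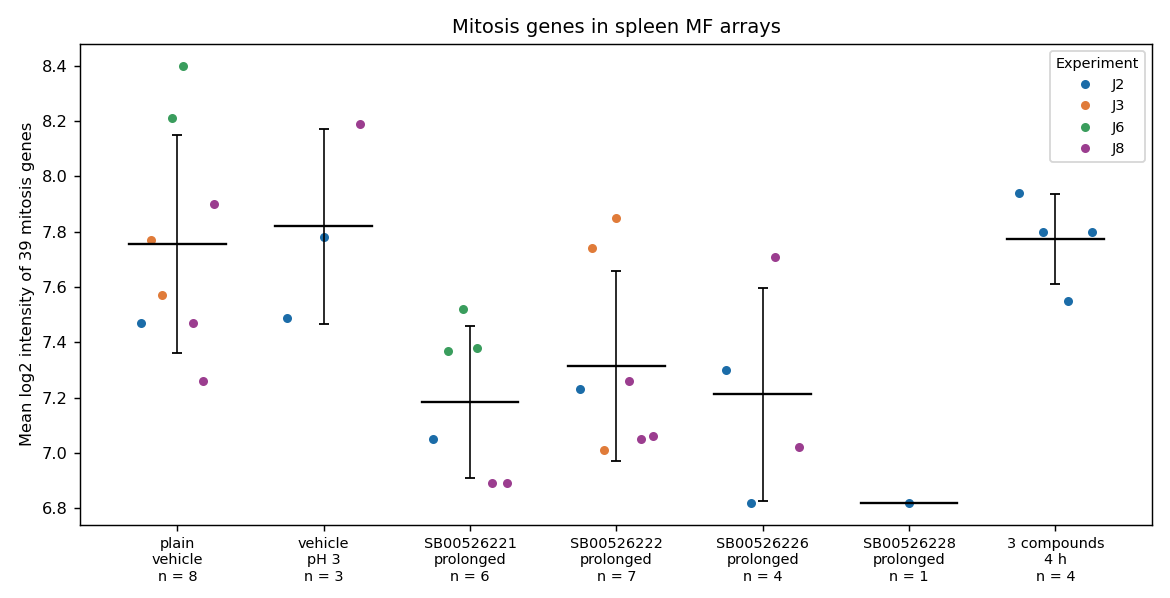
Members' mean log2 level on each spleen MF array, by group; points are arrays coloured by experiment, lines are group means and bars are SD. Vehicle arrays lie at 7.26 to 8.40, the 6 SB00526221 prolonged arrays at 6.89 to 7.52 and the 4 h arrays at 7.55 to 7.94.

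Among the 3 compounds with several arrays, the fitted difference from vehicle was widest under SB00526221, although the pairs of compounds did not separate when compared directly. Within J2, SB00526221 stood at 7.05, nearly level with the SB00526226 arrays at a mean of 7.06, and SB00526222 stood at 7.23, against 7.47 in vehicle. The 1 SB00526228 array, which is not among those 3 compounds, stood lower, at 6.82. The 6 SB00526221 arrays had a mean of 7.18 ± 0.27 (SD) against 7.76 ± 0.39 (n = 8) in vehicle, and the fitted difference was -0.66 ± 0.15 (SE). 4 of 35 members fell (0.164% of all genes were called lower): Plk1, Knl1, Cdkn3 and Kif2c. Kif2c passed the filter on few arrays, as given below. 34 of 35 were lower at an unadjusted p under 0.05 (5.09% of genes), and 30 of 35 lay below the vehicle mean of the same experiment on all 6 arrays (4.44% of genes did so).

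Plk1, the kinase needed for spindle assembly and mitotic exit, read 7.38 in J2, 7.89, 8.0 and 7.86 in J6 and 7.33 and 7.37 in J8 under SB00526221. Vehicle arrays read 8.12 in J2, 8.38 and 8.07 in J3, 8.91 and 9.10 in J6 and 7.87, 7.87 and 8.44 in J8. All SB00526221 arrays lay below the vehicle arrays of their own experiment, while the groups overlap across experiments. Plk1 fell by 0.83 ± 0.16 (SE), 1.78-fold, with an adjusted p of 0.030 by limma.

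Cdkn3 encodes a phosphatase that acts on cyclin-dependent kinases. Its SB00526221 arrays read 6.97 (J2), 7.21, 7.14 and 7.34 (J6) and 6.85 and 6.5 (J8), and its vehicle arrays 7.60 (J2), 7.84 and 7.51 (J3), 8.04 and 8.85 (J6) and 7.38, 7.45 and 7.60 (J8). It was the 1 of 35 tested members whose groups did not overlap at all (0.0638% of genes were lower without overlap), falling by 0.93 ± 0.18 (SE), 1.90-fold, with an adjusted p of 0.037 by limma. The J6 vehicle array at 8.85 was the highest by far.

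Knl1, the kinetochore scaffold that recruits the checkpoint kinase BUB1, read 6.52 (J2), 6.86, 7.0 and 7.03 (J6) and 6.17 and 6.28 (J8) under SB00526221. In vehicle it read 7.55 (J2), 7.22 and 7.24 (J3), 7.87 and 8.20 (J6) and 6.6, 6.85 and 7.19 (J8). The groups overlap because vehicle in J8 was low, but within each experiment SB00526221 was lower on every array. Knl1 fell by 0.84 ± 0.17 (SE), with an adjusted p of 0.037 by limma.

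Kif2c read 6.23 (J2), 6.39, 6.51 and 6.44 (J6) and 6.04 and 6.08 (J8) under SB00526221 and 6.39 to 7.34 over the 8 vehicle arrays. It stood low on the array throughout and fell by 0.54 ± 0.11 (SE), with an adjusted p of 0.043 by limma. Only 25% of the 8 vehicle arrays read above their array's median in Kif2c. With 1 array left out, it passed the filter in 12 of 14 fits. Its entry to the test thus rested on a few vehicle arrays where it was high, so its call is a description. The 31 other members tested did not pass: the largest difference was that of Nusap1, a spindle microtubule bundler, at -1.0 ± 0.24 (SE, adjusted p 0.076 by limma), and Anln missed the threshold at -0.89 ± 0.19 (adjusted p 0.053). The smallest was that of Cdc20, at -0.26.

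**Figure D3:**
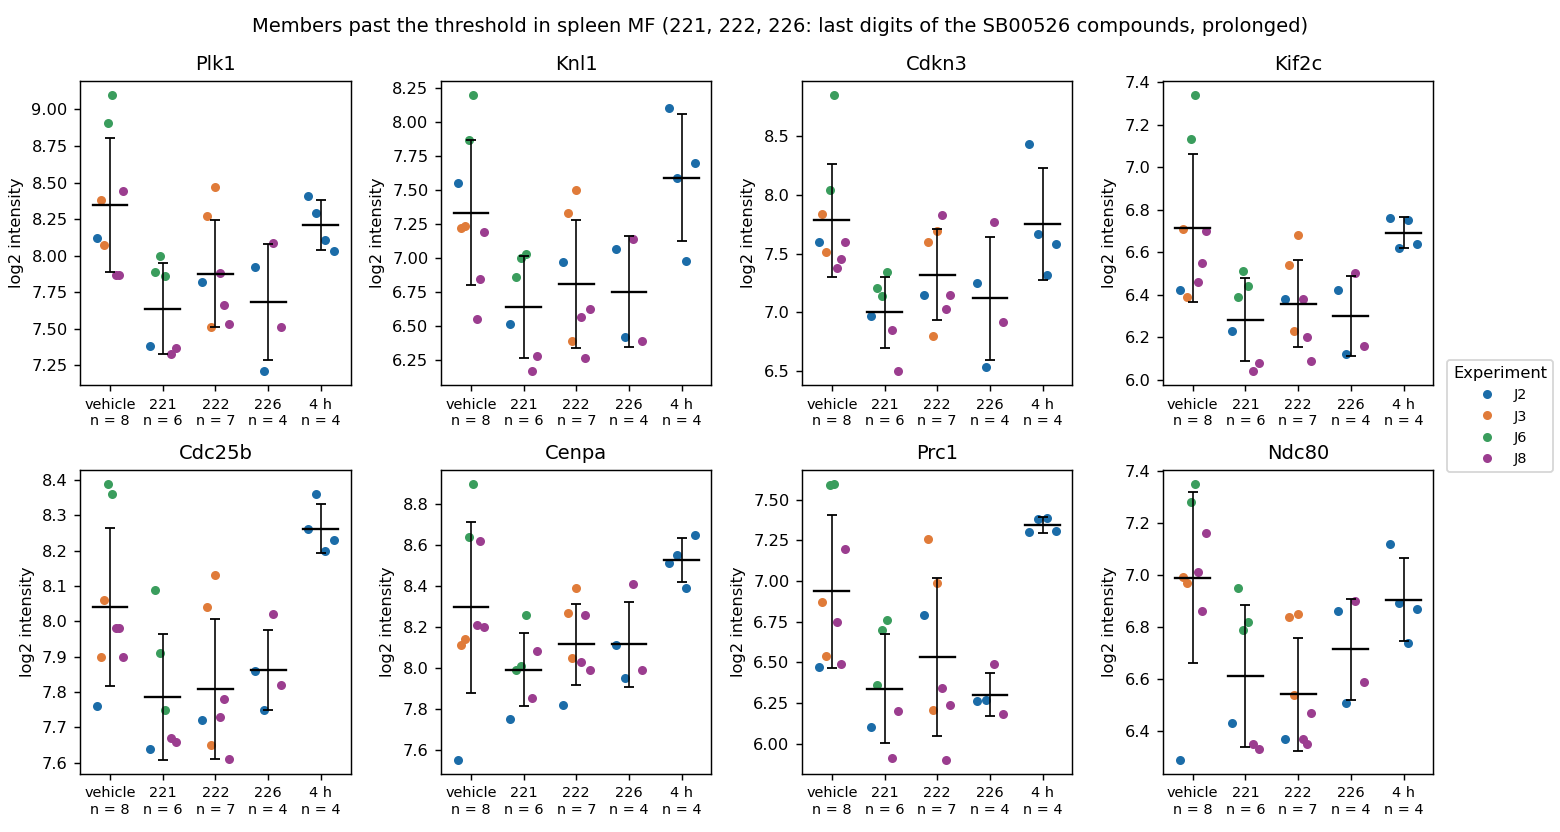
Log2 level of the 8 members called in spleen MF (Plk1, Knl1, Cdkn3 and Kif2c under SB00526221 against vehicle; Cdc25b, Cenpa, Prc1 and Ndc80 between schedules) on each array; points are arrays coloured by experiment, lines are means and bars are SD. Cdkn3 under SB00526221 ends at 7.34, below the lowest vehicle array at 7.38.

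These calls moved with single arrays, and the share of all genes called in each refit is not given here. The count was 0 without SB00526221 replicate 2, 3, 4, 5 or 6 or without vehicle replicate 4, 5 or 8, 1 without vehicle replicate 1, 10 without SB00526221 replicate 1 and 17 without vehicle replicate 7, and it was 0 where the experiment term was left out, while leaving out 1 array kept the members' mean difference between -0.75 and -0.60. The monocyte list differed in the same arrays by -0.47 ± 0.17 (SE; 0 of 2 genes called), at 6.73 to 7.82 against 7.07 to 7.92 in vehicle; its part in the result was not tested.

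SB00526222 and SB00526226 had fitted differences from plain vehicle nearer to 0. SB00526222 arrays had a mean of 7.32 ± 0.34 (SD, n = 7) and a difference of -0.33 ± 0.15 (SE), with no member called (0.00911% of genes) and 18 of 35 lower at an unadjusted p under 0.05 (1.36%). SB00526226 arrays read 7.30 and 6.82 in J2 and 7.71 and 7.02 in J8, a difference of -0.29 ± 0.18 (SE) with no member called (0% of genes) and 4 of 35 lower unadjusted (1.64%). Without 1 of SB00526226 replicates 2, 3 and 4 its difference was -0.18, -0.46 and -0.18. The single SB00526228 array, in J2, stood at 6.82, a difference of -0.65 from the J2 vehicle array.

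SB00526226 was also set against vehicle at pH 3, whose 3 arrays read 7.49, 7.78 and 8.19. Against these the difference was -0.63 ± 0.21 (SE), with 27 of 35 members lower at an unadjusted p under 0.05 (1.7% of genes) and none called (0%). In 6 of the 35 tested members, Kif11, Knl1, Prc1, Cenpf, Cdc25b and Ccnb2, all SB00526226 arrays lay below all arrays of vehicle at pH 3 (1.67% of genes did so). Vehicle at pH 3 itself stood 0.34 ± 0.20 (SE) above plain vehicle, with all 35 tested members above 0 (45.1% of genes were below it) and none called (0%). That shift was 0.17 in J2 and 0.65 in J8, where 1 array had vehicle at pH 3, and 0.14 without that array. The choice of vehicle thus moved the SB00526226 difference by more than 1.5 times, and the sources used here do not say which vehicle carried which compound.

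Direct comparisons between compounds called no member in any of the 3 pairs tested on the prolonged schedule (0% of genes in each). SB00526221 minus SB00526222 gave a mean difference of -0.34, with a 95% confidence interval from -0.71 to 0.03, and 10 of 35 members were lower at an unadjusted p under 0.05 (3.2% of genes). SB00526221 minus SB00526226 gave -0.38 (-0.78 to 0.02), with 11 lower unadjusted (4.52% of genes), and -0.20 without SB00526226 replicate 3. SB00526222 minus SB00526226 gave -0.04 (-0.42 to 0.34). The smallest adjusted p over the members was 0.9999, 0.704 and 0.9998 in these pairs by limma, and the intervals leave room for differences as large as those from vehicle.

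Between the schedules, the members stood higher at 4 h than after prolonged treatment. At 4 h after the third treatment, the members' mean read 7.94 (SB00526221), 7.80 and 7.80 (SB00526222) and 7.55 (SB00526226), all above the prolonged median of 7.23 over 17 arrays of the same 3 compounds. The fitted difference, 4 h minus prolonged, was 0.78 ± 0.18 (SE), and all 35 members tested were above 0 (43.9% of genes were below it). 4 members were called higher at 4 h (0.1% of all genes were): Cdc25b, Cenpa, Prc1 and Ndc80. 34 of 35 were higher at an unadjusted p under 0.05 (6.93% of genes).

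Cdc25b read 8.26, 8.36, 8.23 and 8.20 at 4 h and 7.61 to 8.13 over the 17 prolonged arrays, so the groups did not overlap. It was higher by 0.59 ± 0.09 (SE), 1.51-fold, with an adjusted p of 0.0045 by limma. Prc1, the microtubule crosslinker that forms the central spindle, read 7.30, 7.38, 7.31 and 7.39 at 4 h and 5.90 to 7.26 after prolonged treatment, again without overlap. These were the 2 of 35 tested members higher without overlap (0.164% of genes were). Prc1 was higher by 1.09 ± 0.20 (SE), 2.1-fold, with an adjusted p of 0.016 by limma.

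Cenpa read 8.51, 8.55, 8.7 and 8.39 at 4 h against 7.75 to 8.41 in the prolonged arrays, and was higher by 0.79 ± 0.13 (SE, adjusted p 0.0081 by limma). 1 of the 4 arrays fell inside the prolonged range. Ndc80 read 7.12, 6.89, 6.87 and 6.74 at 4 h against 6.33 to 6.95, and was higher by 0.55 ± 0.12 (SE, adjusted p 0.043 by limma). Bub1 had the widest difference, 1.13, and was not called.

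Within J2, the 1 experiment that holds both schedules, the mean difference was 0.67 (4 against 4 arrays) with no member called, and the hours and number of treatments change together. Among all arrays the count was 1 without SB00526222 4 h replicate 2, 2 without SB00526222 4 h replicate 1, 7 without SB00526221 prolonged replicate 1, 12 without SB00526226 4 h replicate 1 or SB00526226 prolonged replicate 4, and 15, 16, 18 and 21 without SB00526222 prolonged replicate 2, 3, 4 and 5. The share of all genes called in those refits is not given here. The B cell list differed by -0.67 ± 0.20 (SE), with 3 of 3 tested genes lower unadjusted and none called, at 6.02 to 6.82 against 6.08 to 7.33; its part in the result was not tested.

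Against prolonged vehicle, the 4 h arrays showed no called member (0.0182% of genes were called higher), and 8 of 35 were higher at an unadjusted p under 0.05 (4.14%). The mean difference was 0.34 ± 0.20 (SE), and 0.30 within J2, where a single vehicle array was available. 34 of 35 tested members were above 0 (44.3% of genes were below it). These comparisons share arrays with those of the prolonged schedule, so they add no independent direction.

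**Figure D4:**
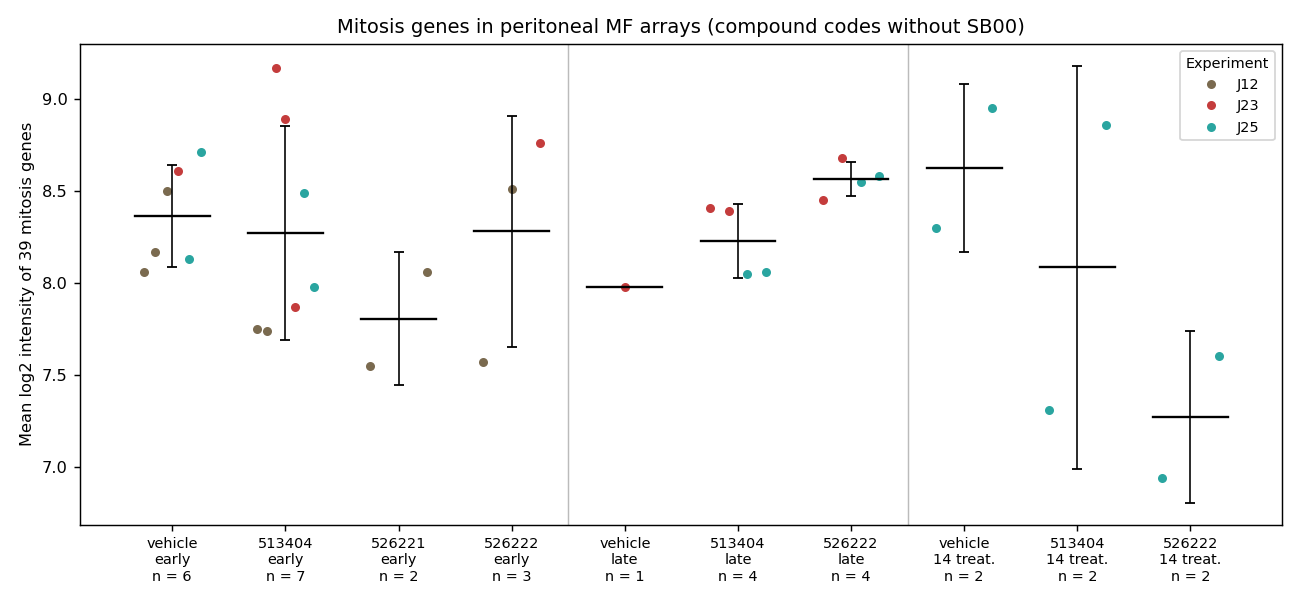
Members' mean log2 level on each peritoneal MF array, by compound and schedule; points are arrays coloured by experiment, lines are group means and bars are SD where a group has more than 1 array. After 14 treatments, 3 of the 4 inhibitor arrays (6.94, 7.31 and 7.60) lie below both vehicle arrays (8.30 and 8.95), and the fourth is at 8.86.

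In peritoneal MF the largest differences followed 14 treatments, in 1 experiment with few arrays. SB00526222 arrays had a members' mean of 6.94 and 7.60, SB00513404 arrays 7.31 and 8.86, and vehicle arrays 8.30 and 8.95. The fitted difference was -0.95 ± 0.37 (SE), with all 38 members tested below 0 against 48.6% of all genes. No member was called (0% of genes), and 31 of 38 were lower at an unadjusted p under 0.05 (4.78% of genes).

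The 5 members with the largest statistic were Bub1, Ect2, Kif11, Kif23 and Ccna2. Bub1 read 7.23 and 8.95 under SB00513404, 6.48 and 7.48 under SB00526222 and 8.45 and 9.77 in vehicle, a difference of -1.58 ± 0.42 (SE). Ect2, the exchange factor that activates RhoA at the furrow, read 7.66 and 9.12, 7.11 and 7.81, and 8.59 and 9.92 in the same order, a difference of -1.33 ± 0.37 (SE). In both genes SB00513404 replicate 2 lay inside the vehicle range and the other 3 arrays below it.

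Kif11, the motor that separates the spindle poles, read 7.88 and 9.80 under SB00513404, 7.12 and 8.14 under SB00526222 and 9.08 and 10.36 in vehicle, a difference of -1.48 ± 0.42 (SE). Kif23 read 8.10 and 9.60, 7.42 and 8.26, and 8.96 and 10.27 in that order, a difference of -1.27 ± 0.36 (SE). Ccna2 read 8.94 and 10.69, 8.19 and 9.39, and 10.16 and 11.02, a difference of -1.29 ± 0.38 (SE). All 5 had an adjusted p of 0.390 by limma, and their groups overlap through the same array. Without SB00513404 14-treatment replicate 2, which leaves 1 array of that compound, 12 members were called. The share of all genes called in that fit is not given here, so this count is not read as a result about the members. Without vehicle replicate 2 of the 14-treatment arrays none was called, the mean difference was -0.62, and the differences were -0.92 (Bub1), -0.66 (Ect2), -0.84 (Kif11), -0.61 (Kif23) and -0.85 (Ccna2). Without vehicle replicate 1 of those arrays the difference was -2.0 for Ect2 and -1.93 for Kif23, also with no member called.

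By role, medians after 14 treatments ran from -1.15 for the 4 cyclins and CDK1 regulators and -1.11 for the 7 spindle motors to -0.69 for Ube2c and Cdc20. Racgap1, a GTPase-activating partner of Kif23, had the smallest difference, -0.26. Beside these, the large peritoneal macrophage list differed by 0.24 ± 0.13 (SE; 0 of 6 called), the monocyte list by -0.36 ± 0.26 and the germinal centre B cell list by -0.35 ± 0.15; their part was not tested.

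After 1 treatment the members did not separate from vehicle. Early arrays had a mean of 8.19 ± 0.55 (SD, n = 12) against 8.36 ± 0.28 (n = 6), a difference of -0.19 ± 0.22 (SE) with no member called (0.0925% of genes were called lower). Within experiments it was -0.38 in J12, 0.07 in J23 and -0.19 in J25. SB00513404 in J23 read 7.87 at 1.5 h, 8.89 at 3 h and 9.17 at 6 h, on 1 array each. Late arrays had a mean of 8.40 ± 0.23 (n = 8) against 8.41 ± 0.49 (n = 3), a difference of -0.04 ± 0.30 (SE) with no member called (0%), and the within-experiment values, 0.50 in J23 and -0.31 in J25, had opposite signs.

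Set against early arrays of SB00513404 and SB00526222, those of 14 treatments had a fitted mean difference of -0.71 ± 0.31 (SE). The early inhibitor arrays of J25 hold SB00513404 alone. For that compound within J25 the difference was -0.15 (2 against 2 arrays). All 38 members were below 0 (44.6% of genes), and none was called (0%). Without SB00513404 14-treatment replicate 2 the count was 2 and the mean -1.11, and without SB00526222 14-treatment replicate 1 the mean was -0.47. The difference between the effect of prolonged treatment in spleen MF and that of 14 treatments in peritoneal MF was 0.50 ± 0.34 (SE) over the members' mean, with none called (0%), so the wider peritoneal values are not shown to differ from those in spleen.

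In GN the members lay on the other side of vehicle. Inhibitor arrays on the prolonged schedule had a mean of 7.24 ± 0.38 (SD, n = 6) against 6.89 ± 0.22 (n = 5), a difference of 0.32 ± 0.11 (SE). 24 of 27 tested members were above 0 (48% of genes were below it), none was called (0.0271% of genes were called higher) and 13 were higher at an unadjusted p under 0.05 (6.08%). Ccna2 read 9.29 and 8.7 under SB00526228 (J2), 8.29, 7.49 and 8.12 under SB00526222 (J3) and 7.34 under SB00526221 (J6). Its vehicle arrays read 8.14 (J2), 6.47 (J3) and 7.74, 7.20 and 7.29 (J6), a difference of 1.03 with the smallest adjusted p of the members, 0.20 by limma. The inhibitor arrays of J2 and J3 lay above the vehicle array of their experiment, and that of J6 lay within its 3 vehicle arrays.

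The mean difference was 0.41 in J2, 0.38 in J3 and -0.02 in J6. J6 thus showed almost no difference, with 1 inhibitor array against 3 vehicle arrays, and each compound was in 1 experiment alone. Without GN vehicle replicate 2, the 1 vehicle array of J3, the mean was 0.049. Kif23, which stood high in GN, differed by -0.26. A granulocyte precursor list was higher in the same arrays by 0.72 ± 0.11 (SE), with 2 of 6 tested genes called higher, at 8.81 to 9.48 against 7.97 to 9.13 in vehicle. Its part in the members' values was not tested. At 4 h the mean difference in GN was 0.30 ± 0.17 (SE, n = 4 against 5), with no member called (0% of genes were called higher).

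The effect of prolonged treatment differed between MF and GN for 5 members in a test of the difference itself, with animal as a random block (adjusted p by limma over 9603 genes). Ccnb2, a B-type cyclin, differed by -1.65 ± 0.34 (SE, adjusted p 0.0044), Top2a, which untangles sister chromatids, by -1.44 ± 0.31 (0.0081) and Ccna2 by -1.70 ± 0.38 (0.010). Stmn1, which destabilises microtubules, differed by -1.08 ± 0.26 (0.022) and Ube2c by -1.31 ± 0.32 (0.032). All 27 members tested lay below 0, and 0.323% of genes were called lower. The mean over all 39 members, tested or not, differed by -0.75 ± 0.20 (SE). In a fit of the MF and GN arrays alone, chosen after the data were seen, 5 members were called: Ccna2, Ccnb2, Kif11, Knl1 and Top2a. In all, 28 of the 9603 genes were called in that fit, and brackets give this total for each refit. The count of members was 0 (4 genes) without GN SB00526222 replicate 1 and 1 (9) without GN vehicle replicate 2. It was 8 (34) without MF vehicle replicate 7, 9 (36) without MF SB00526226 replicate 3 and 15 (108) without GN vehicle replicate 1. It was 3 (18 to 25) without any 1 of MF vehicle replicates 1, 2, 4, 5 and 8 or MF SB00526221 replicates 2 to 6. It was also 3 (16 to 29) without any 1 of GN SB00526228 replicates 1 and 2 or GN SB00526222 replicates 2 and 3. The other cell types gave no call: the members' mean of MF minus DC was -0.25 ± 0.16 (SE), that of MF minus NK was -0.23 ± 0.19 and that of MF minus T4 was -0.42 ± 0.14, with 0% of genes called in each.

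DC, NK and T4 held no called member on either schedule. In DC the prolonged mean was 7.82 ± 0.29 (SD, n = 12) against 7.97 ± 0.22 (n = 6), a difference of -0.19 ± 0.14 (SE) with 34 of 36 members below 0 (35% of genes) and none called (0%). 6 of 36 were lower at an unadjusted p under 0.05 (0.572% of genes). The difference was 0.15 in J3 and below 0 in J2 and J6. At 4 h the DC difference was -0.28 ± 0.25 (SE, n = 2), and 0.020 without the SB00526226 array. In NK the prolonged difference was -0.23 ± 0.14 (SE, 19 against 3 arrays), with none called (0%). Of the 19 inhibitor arrays, 9 had a vehicle array in their own experiment. The NK difference was -0.046 without NK vehicle replicate 1 and -0.38 without NK vehicle replicate 2. In T4 it was -0.02 ± 0.10 (SE, 19 against 7 arrays), with 19 of 31 members below 0 (55.2% of genes) and none called (0%), and at 4 h it was -0.04 ± 0.17 (0.00889% of genes were called higher).

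NK at 4 h showed a split among the members. The mean difference was -0.36 ± 0.15 (SE, n = 5 against 3), no member was called (0.0818% of genes were called lower), and 8 of 19 were lower (6.89% of genes) and 2 higher (4% of genes) at an unadjusted p under 0.05. Without NK vehicle replicate 1 the mean difference was -0.16. Ccna2 differed by -1.40 with an adjusted p of 0.18 by limma. The 2 that were higher were Racgap1 (0.72) and Cdc25b (0.34), and Racgap1 had the lowest correlation with the other members over the NK arrays, -0.28.

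**Figure D5:**
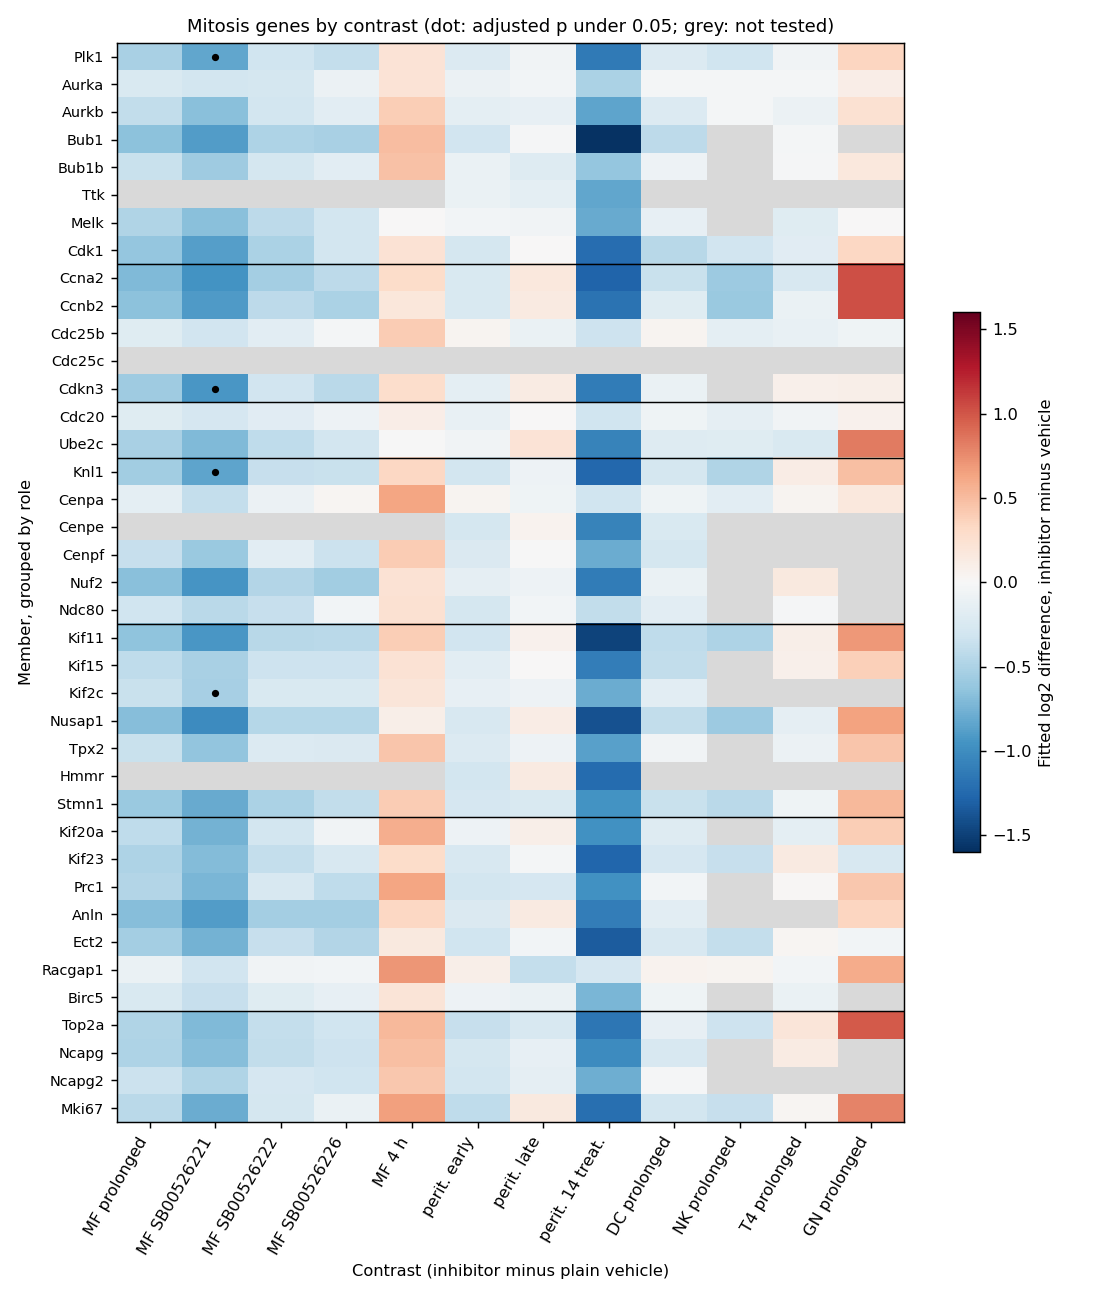
Fitted log2 difference of each of the 39 members (rows, by role) in 12 comparisons (columns); dots mark adjusted p under 0.05 and grey marks members not tested in that cell type. Differences are below 0 down the whole column in spleen MF after prolonged treatment and in peritoneal MF after 14 treatments, and mostly above 0 in GN.

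Other genes of the same programme, taken from lists named with earlier results known, were counted in spleen MF beside the members. Under SB00526221, 3 of 48 tested other mitosis genes fell: Cdca3, a mitotic entry factor (-0.66, adjusted p 0.040 by limma), Kif18b (-0.63, 0.043) and Kif22, a chromosome motor (-0.57, 0.046). Their list median was -0.42. Of 33 regulators 2 fell: E2f8, a repressor of the E2F family (-0.89, adjusted p 0.030 by limma), and Cdkn2c, an inhibitor of CDK4 and CDK6 (-0.53, 0.038), with a list median of -0.14. Of 30 tested S-phase genes 1 fell, Tk1, the thymidine kinase (-0.58, 0.046), with a list median of -0.32. Foxm1, the activator of late cell cycle genes, differed by -0.60 and was not called (adjusted p 0.152 by limma). The median over all genes was -0.01, and 0.164% of genes were called lower.

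After 14 treatments in peritoneal MF, none of these genes was called. The list medians were -0.69 for 55 tested other mitosis genes, -0.27 for the 33 regulators and -0.52 for 31 S-phase genes, against 0.01 over all genes. 31, 11 and 18 of them were lower at an unadjusted p under 0.05 (4.78% of genes). Mad2l1, a checkpoint protein, differed by -1.17, Ccne2, a cyclin of S-phase entry, by -1.23 and Tyms, which makes thymidylate, by -0.96. In the schedule comparison of spleen MF the medians, 4 h minus prolonged, were 0.43, 0.14 and 0.37, with 36 of 48, 7 of 33 and 18 of 30 genes higher unadjusted (6.93% of all genes were) and none called. In GN on the prolonged schedule they were 0.10, 0.06 and 0.06, again with none called.

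Outside the members, the genes whose values followed the members' mean most closely over the 33 spleen MF arrays, experiment means removed, were Neil3 (Pearson r 0.96), Ncaph (0.95), Foxm1 (0.95) and Ckap2l (0.94). Over the 33 peritoneal MF arrays they were Neil3 (0.97), Spc25 (0.96), Mastl (0.96) and Sgo1 (0.96). These arrays include the treated groups, so the likeness is a description of both the group and the single-array variation.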

How the data were processed

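The authors deposited 1 value table with 168 arrays and 24922 probe sets, holding normalized intensity values on a linear scale; per the submitters' processing notes they were made with Affymetrix Power Tools and RMA, with versions not given in the sources used here. Of the probe sets, 21425 carried 1 gene symbol, 1399 several and 2098 none. Here each value was taken to log2, and each gene was represented by its probe set of highest mean. Genes above the array's median on at least 3 arrays of a cell type were tested, with limma 3.58.1 in R 4.3.3 (lmFit, eBayes, two-sided, Benjamini-Hochberg), 1 fit per cell type with group and experiment as terms. Differences of effect between spleen cell types used 1 fit with animal as a random block (within-animal correlation 0.046 over 135 spleen arrays). Vehicle levels used another such fit (0.047 over 29 arrays). The effect in spleen MF minus that in peritoneal MF was fitted without this block. The code was tested on simulated data. No p was computed for a mean over members. Full values are given for called members and, in spleen MF prolonged and peritoneal MF after 14 treatments, for the 5 with the largest statistic; of each other list up to 4 genes may be named. The members and lists were chosen with earlier results of these data known, some of which the text repeats as a base. Alternatives were normalization, offset, filter, array weights, experiment terms, probe set choice and leaving out arrays. Precision is limited by the number of arrays.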

Additional observations from a re-analysis of the deposited data

Results flagged for a closer look

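4 of 131 checks, each of 1 value in a group of 4 to 10 arrays, found an array far from the rest of its group. Chance gives about 1 in 20 such checks. The values were the members' mean and, in MF groups, named members, so the same group was checked for several values. Cdkn3 in vehicle spleen MF replicate 5 (J6), at 8.85, was the highest of 8. Ndc80 in vehicle spleen MF replicate 1 (J2), at 6.29, was the lowest of 8. Ndc80 in peritoneal MF under SB00513404, late replicate 4, at 6.76, was the lowest of 4, and Cenpa in early vehicle peritoneal MF replicate 6, at 9.32, was the highest of 6.

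The effect of prolonged treatment differed between spleen MF and GN for Ccna2 (-1.70), Ccnb2 (-1.65), Stmn1 (-1.08), Top2a (-1.44) and Ube2c (-1.31), tested as a difference of differences by limma; the inhibitors are not the same in both cell types, since the GN arrays hold SB00526228, SB00526222 and SB00526221 in a separate experiment each.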

How the results depend on the processing

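Within a cell type, no paired analysis was possible because every title carries the same replicate number and each animal gave 1 array there. Across spleen cell types, animal was kept as a random block. Without it, MF minus GN called 5 members, as with it, and vehicle NK and T4 minus MF called 24 and 16 lower. Over all settings, 62 of 575 counts of members, 12 mean differences and 87 of 461 values of single members changed their direction or their side of the threshold or moved beyond the spread or the 1.5 times allowed. For SB00526221 in spleen MF, the count of called members was 0 without the experiment term, with experiment as a random block and after quantile normalization, 27 with array weights and 7 without arrays standing apart, and 0 to 17 when 1 array was left out. For 4 h minus prolonged inhibitors it was 2 with the random block and with a stricter filter, 14 after quantile normalization, 32 with array weights, 21 without arrays standing apart, 0 in J2 alone and 1 to 21 when 1 array was left out. With array weights it was 19 for all prolonged inhibitors in spleen MF and 25 for SB00526226 against vehicle at pH 3. Leaving out 1 array gave 0 to 8 for all prolonged inhibitors in spleen MF, 0 to 12 for 14 treatments, 0 to 2 for 14 treatments minus early, 0 to 4 for GN prolonged, 0 to 13 for GN at 4 h and 0 to 15 for MF minus GN (9 without MF SB00526226 replicate 3). GN at 4 h had 12 called members and a mean of 0.68 without the experiment term, 1 and 0.62 with the random block, and means of 0.14 to 0.74 when 1 array was left out. The mean of GN prolonged ranged from 0.049 to 0.47 when 1 array was left out and was -0.017 within J6; that of DC at 4 h ranged from -0.58 to 0.020. The mean of the late peritoneal arrays was 0.56 against vehicle of 1 treatment and 0.50 within J23. Within experiments the prolonged mean was -0.88 in J6 for spleen MF, 0.15 in J3 for DC and 0.54 in J3 for T4. Except for MF minus GN, the share of all genes called in each refit is not given here. These counts therefore show how far the calls moved and are not a result about the members. The cause of these changes was not tested, except that fits of 1 experiment or without an array hold fewer arrays. Low signal limits the members near the array median, such as Kif2c and Ndc80.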
